A study of Mus musculus with 11 samples.

Results

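The 10 regions described here are the upstream antisense RNA (uaRNA) regions of Ccdc107, Parp2, Gtf3c6, Rnf151, Gid8, Atf5, 1810009A15Rik, Schip1, Rab24 and Pcif1. They were selected on their mean uaRNA reads over all 5 libraries, and they hold ranks 1 to 12 of the 5867 uaRNA regions in the deposited table except ranks 4 and 6, the histone genes H4c1 and H1f1. The last region inside, Pcif1, had a mean of 4954 depth-normalized reads, and the first outside, Sgsm2, had 4754. Their high level is therefore how they were picked and is given as a description. The rule did not use the difference between the groups of libraries, but the members were chosen with earlier results of these data known.

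A uaRNA is a short-lived transcript that leaves an active promoter in the direction opposite to the gene, here called the host. ZC3H4 works with WDR82 in the Restrictor complex, which stops RNA polymerase II early on such noncoding transcription units. Other stable RNAs can lie in the same stretch of DNA: Rmrp is the RNA of RNase MRP and acts in ribosomal RNA processing, Rpph1 is the RNA of RNase P, which trims precursor tRNAs, and Rnu3a is a U3 small nucleolar RNA, which also acts in ribosomal RNA processing.

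Newly made RNA was measured by TT-seq, in which cells take up 4-thiouridine (4sU) and the RNA carrying it is fragmented, biotinylated and captured. Wild-type F121-9 cells, a female mouse embryonic stem cell line of CAST/129 hybrid background, were kept in serum-free medium with LIF and inhibitors of MEK and GSK3 and received 30 nM of siNT, a non-targeting siRNA (n = 3), or of siZC3H4, an siRNA against Zc3h4 (n = 2). All were given 500 µM 4sU for 20 minutes and collected 47 hours after transfection. The series' 3 DMSO and 3 dTAG-13 samples are not analysed here. The labels call the libraries replicates without saying that each came from its own culture, so the p-values measure the spread between these samples, which may be technical.

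Recovered uaRNA reads ranged from 996927 to 2648683 a library, the highest being siZC3H4 replicate 2, and exon reads from 14840637 to 26548710. As to the labelled cell type, all 10 naive pluripotency markers were in the exon table, with a summed exon read level of 106180 to 128276 in siNT and 96689 to 115942 in siZC3H4. Markers of other cell types were present at lower sums: 2 of 6 fibroblast markers, led by Fn1, at 27917 to 32853 and 28045 to 29757, 4 of 4 neural markers, led by Tubb3, at 1310 to 1595 and 1892 to 1944, 3 of 3 mesoderm markers at 349 to 494 and 367 to 594, and 2 of 4 endoderm markers at 26.1 to 87.0 and 66.2 to 108, while 0 of 3 trophoblast markers were in the table. As a single gene, Fn1 had a siNT mean of 31056, above the 28439 of Tfcp2l1, the naive marker with the most reads. None of the markers of any list passed the test. The neural sums did not overlap between groups, and their part in the results was not tested. Exon reads of Zc3h4, the siRNA target, rose from 3465, 3610 and 3363 to 7285 and 6718 (log2 1.01 ± 0.11 SE, limma adjusted p = 0.00431). These are reads of newly made RNA, which may not test whether the siRNA lowered the mature mRNA. The knockdown was therefore not checked here. Every direction below is therefore that of the libraries labelled siZC3H4.

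The table of uaRNA regions names each by its host and gives no position of its own, so the DNA beside each host start was read from RefSeq (GRCm38.p6, the assembly of mm10, the build named in the submitters' notes). Stretches upstream of 3 hosts are printed because another RNA or its flank lies inside them. They run 5′ to 3′ on the host strand and end just before the RefSeq start of the host. Capitals mark the 106 bases of Rpph1 in the first, at chr14:50807666-50807896, and the 138 bases of the antisense lncRNA 5730408K05Rik in the second, at chr19:8888633-8888882. In the third, at chr4:43493115-43493339, capitals mark a TATAAA, 162 bases from the near end of Rmrp.
Parp2: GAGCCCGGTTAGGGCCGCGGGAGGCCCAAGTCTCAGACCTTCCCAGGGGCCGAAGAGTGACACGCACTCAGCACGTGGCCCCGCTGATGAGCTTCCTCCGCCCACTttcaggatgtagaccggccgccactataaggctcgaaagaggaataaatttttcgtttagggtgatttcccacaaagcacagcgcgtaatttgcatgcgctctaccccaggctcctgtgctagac
1810009A15Rik: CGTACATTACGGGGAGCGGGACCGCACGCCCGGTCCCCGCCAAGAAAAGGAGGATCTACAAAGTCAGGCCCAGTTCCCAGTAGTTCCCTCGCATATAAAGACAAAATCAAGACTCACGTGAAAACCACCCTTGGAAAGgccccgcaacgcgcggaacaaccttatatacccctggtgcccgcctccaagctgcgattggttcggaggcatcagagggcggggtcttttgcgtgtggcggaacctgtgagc
Ccdc107: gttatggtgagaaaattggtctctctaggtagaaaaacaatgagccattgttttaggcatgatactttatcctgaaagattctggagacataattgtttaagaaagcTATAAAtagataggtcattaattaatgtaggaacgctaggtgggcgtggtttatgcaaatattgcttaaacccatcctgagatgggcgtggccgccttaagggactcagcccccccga

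The upstream stretch of 1810009A15Rik also holds Mir5136, whose mature miRNA, mmu-miR-5136, is shown with its seed, bases 2 to 8, in capitals. It maps to chr19:8888709-8888728 on the minus strand, the strand opposite to the host.
mmu-miR-5136: aUAUGCGAgggaacuacugg

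Of the 10 hosts, 9 had a RefSeq gene of the opposite strand, or one whose strand the tables used here do not give, in the 1 kb upstream of the deposited start. Only 35.2% of the 88 regions ranked 13 to 100 did, 27.0% of those ranked 101 to 1000, and 16.9% of all 5867. For the regions with the most reads these genes are structured RNAs: Rmrp lies 582 to 308 bases upstream of Ccdc107, Rpph1 478 to 154 bases upstream of Parp2, and Rnu3a 1019 to 808 bases upstream of Gtf3c6. RefSeq leaves 280 bases between Rmrp and Ccdc107, 125 between Rpph1 and Parp2, and 755 between Rnu3a and Gtf3c6. The strands of Rmrp, Rpph1 and Rnu3a are not given in the tables used here. Counting only genes given as opposite-strand, 6 of the 10 hosts had one, against 30.7% at ranks 13 to 100 and 12.8% of all regions.

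Protein-coding genes of the opposite strand lie beside 4 other hosts. Rps2, which encodes a protein of the small ribosomal subunit, begins in RefSeq 200 bases inside the deposited Rnf151 and runs away from it. Dido1 reaches 727 bases past the deposited start of Gid8, although the RefSeq start of Gid8 is 781 bases further downstream. Nup62, a nuclear pore gene, and Il4i1b overlap the start of Atf5, and Prelid1, a gene of mitochondrial lipid transport, begins in RefSeq 149 bases from Rab24. An antisense lncRNA, 4930445K14Rik, spans the start of Pcif1, and 1810009A15Rik has 5730408K05Rik, Mir5136 and Snora57, of which Snora57 has no strand given, besides Lbhd1 on its own strand. Schip1 was the exception: it lies inside Iqschfp on the same strand, and the nearest RefSeq promoter start is 25114 bases from the deposited one.

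**Figure D1:**
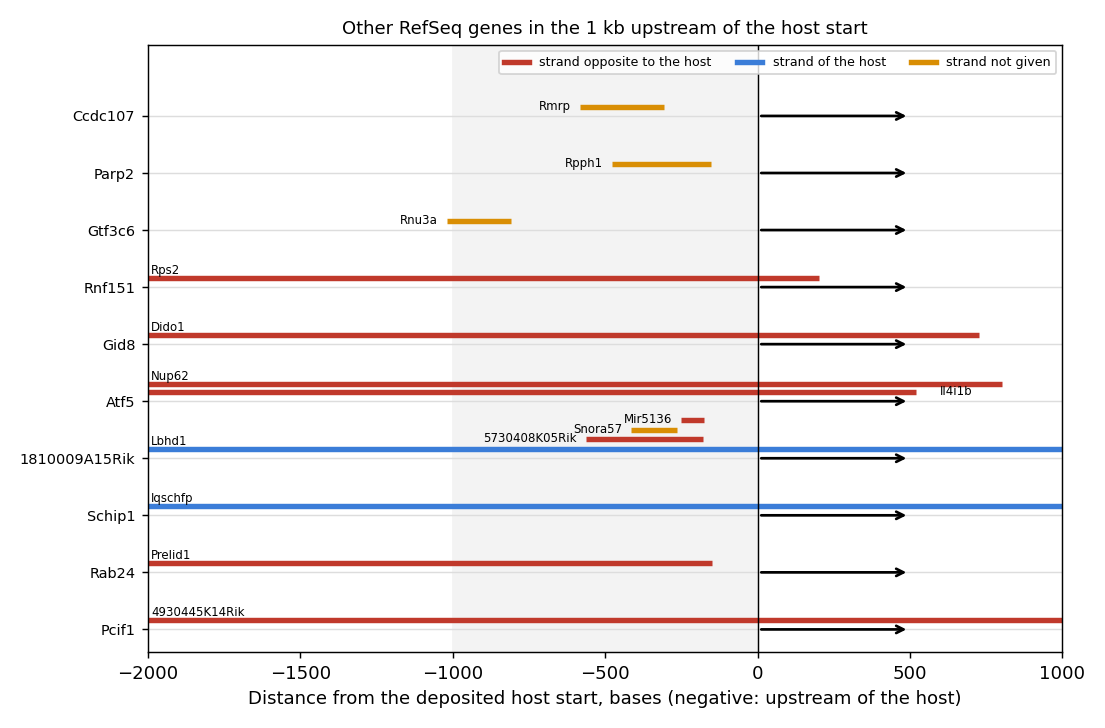
Other RefSeq genes that reach into the 1 kb upstream (shaded) of each of the 10 host starts, drawn by distance in bases from the deposited start (x axis), one host per row; arrows give the host's direction, and bars running past the frame are cut there. Genes of the opposite strand or with no strand given appear for 9 hosts, and Schip1 has a same-strand gene alone.

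The promoter windows held few motifs in common. RefSeq windows of 300 bases, 250 before to 50 after a start and within 1 kb of the deposited start, were at hand for 9 of the 10 hosts, all but Schip1, and for 4591 uaRNA hosts in all. Their GC content ran from 49.3% for Ccdc107 to 68.7% for Rab24, against a median of 63.0%. TATAAA was found on the host strand of Ccdc107 and 1810009A15Rik and on the antisense strand of Gtf3c6, whereas 3.46% and 2.18% of all windows held it on those strands. AATAAA, the core of the cleavage and polyadenylation signal, was on the antisense strand of 0 of the 9 windows and 3.86% of all windows; GTAAG, part of a 5′ splice site, was on the antisense strand of Gid8 and Gtf3c6 and in 9.85% of all windows. Overlapping matches were allowed, and a match in these letters is no evidence of a working site.

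The region of Ccdc107, a coiled-coil protein gene (ENSMUSG00000028461, chromosome 4, 43493367 to 43495921, plus strand, mm10), had the most reads in all 5 libraries. It had 47630, 56156 and 76815 depth-normalized reads in siNT replicates 1, 2 and 3, and 34739 and 62632 in siZC3H4 replicates 2 and 3. The lowest value was that of siZC3H4 replicate 2, while replicate 3 lay between siNT libraries, so the groups overlapped. The difference did not pass the test (log2 -0.34 ± 0.20 SE, limma adjusted p = 0.121). It did pass, as a fall, without siNT replicate 1 (log2 -0.49, adjusted p = 0.0149) and without siZC3H4 replicate 3 (-0.76, 0.0158), but was 0.09 without siZC3H4 replicate 2.

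Parp2 encodes a poly(ADP-ribose) polymerase that responds to DNA breaks (ENSMUSG00000036023, chromosome 14, 50807925 to 50821300, plus strand). Its region ranked second in all 5 libraries, with 46606, 52412 and 68702 reads in siNT and 28594 and 49762 in siZC3H4. Here too siZC3H4 replicate 2 was the lowest and replicate 3 lay inside the siNT range. The region fell (log2 -0.55 ± 0.19 SE, limma adjusted p = 0.0113). In such bulk libraries, fewer cells making an RNA and less of it per cell cannot be told apart.

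Gtf3c6 encodes a subunit of TFIIIC, the factor that brings RNA polymerase III to tRNA genes (ENSMUSG00000019837, chromosome 10, 40249350 to 40257660, minus strand). Its region had 33586, 27485 and 39044 reads in siNT and 17370 and 33476 in siZC3H4. The groups overlapped in the same way, with siZC3H4 replicate 2 alone below the siNT libraries. The region fell (log2 -0.45 ± 0.20 SE, limma adjusted p = 0.0384).

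Both falls rest on single libraries. The library siZC3H4 replicate 2 had the largest depth factor, 1.767, against 1 to 1.172 in the others. Before division by it, its recovered reads were 50525 for Parp2, inside the siNT range of 46606 to 80519. They were also inside for Ccdc107, at 61383 against 47630 to 90027. For Gtf3c6 they were 30692, below the siNT range of 31608 to 45759. The part of this factor in the falls was not tested. Without siZC3H4 replicate 2 the log2 change was -0.15 for Parp2 (limma adjusted p = 0.647) and 0.02 for Gtf3c6 (0.953), and without siNT replicate 3 it was -0.39 (0.12) and -0.33 (0.185). Both calls were also lost with no filter on low values (adjusted p = 0.143 and 0.22) and with DESeq2 on recovered reads (0.0792 and 0.2), and that of Gtf3c6 with edgeR on recovered reads (0.0678). The SE of about 0.2 comes mostly from the spread that limma borrows across regions, its tests of uaRNA regions having 67.5 degrees of freedom. The siNT libraries alone varied by 24.9% (coefficient of variation) for Ccdc107, 20.5% for Parp2 and 17.3% for Gtf3c6.

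The ratio of Ccdc107 to Parp2 reads varied less from library to library than the ratio of either to Gtf3c6. It was 1.02, 1.07 and 1.12 in siNT and 1.21 and 1.26 in siZC3H4, a range of 1.23-fold. The reads of Ccdc107 themselves spanned from 34739 to 76815. This ratio did not overlap between groups, being higher in siZC3H4, whereas both ratios to Gtf3c6 overlapped. Over the same libraries the ratio of Ccdc107 to Gtf3c6 spanned 1.44-fold and that of Parp2 to Gtf3c6 1.37-fold; from siNT replicate 1 to replicate 2 the Gtf3c6 region was lower where both others were higher. By Euclidean distance between log2 profiles over the 5 libraries, each centred on its own mean, Parp2 was the nearest of the 5123 other tested regions to Ccdc107 (0.249), and Ccdc107 was the second nearest to Parp2, after Taf13 (0.193) and before Osbpl1a (0.312). After Parp2, the nearest to Ccdc107 were Sp6 (0.317) and Cep120 (0.343). Both had few reads, 15.3 to 27.3 and 35.7 to 75.1 a library, so their profiles carry more counting error. For Gtf3c6, Ints8 (0.314), Twf2 (0.317) and Pfn2 (0.321) came first, of which Twf2 had only 35.7 to 61.4 reads. Of the 5123, Parp2 was the 6th (0.368) and Ccdc107 the 14th (0.434) nearest to Gtf3c6. The median distance of all regions was 1.73 from Ccdc107, 1.87 from Parp2 and 1.79 from Gtf3c6.

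Among the other 7 regions Schip1 rose, and the other 6 did not pass the test. Schip1 encodes a partner of the NF2 protein schwannomin (ENSMUSG00000027777, chromosome 3, 68493297 to 68626463, plus strand). Its region had 4561, 3470 and 5240 reads in siNT and 5799 and 6844 in siZC3H4. Both siZC3H4 libraries lay above all siNT libraries. The rise was 1.44-fold (log2 0.53 ± 0.19 SE, limma adjusted p = 0.0137). Its call was lost without siNT replicate 2 (log2 0.37, limma adjusted p = 0.106), and the log2 change was 0.41 without siZC3H4 replicate 3. Under 4 scalings computed within the uaRNA table, the log2 change of Schip1 turned to between -0.36 and -0.04. Those scalings lower all regions together, to a median of 0.01 to 0.32 over all tested regions.

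Gid8, a subunit of the CTLH ubiquitin ligase (ENSMUSG00000027573, chromosome 2, 180709341 to 180718733, plus strand), had 9559, 8633 and 9270 reads in siNT and 11544 and 12208 in siZC3H4. The siZC3H4 libraries were again both above, with a log2 difference of 0.38 ± 0.18 SE that did not pass the test (limma adjusted p = 0.0628). Schip1 and Gid8 were the 2 of 10 regions whose groups did not overlap, both higher in siZC3H4; of all tested regions 75.8% did not overlap, 73.7% being higher and 2.11% lower.

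Rnf151, a RING finger gene known from the testis (chromosome 17, 24715839 to 24718321, minus strand), held rank 5 in each library. Its region had 17535, 14920 and 16718 reads in siNT and 15655 and 16937 in siZC3H4, with a log2 difference of -0.01 ± 0.18 SE. Its 95% interval, -0.36 to 0.35, leaves out the median change of all uaRNA regions, 0.88.

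The regions of Atf5, Rab24, 1810009A15Rik and Pcif1 did not pass the test either. Atf5, a bZIP transcription factor gene, had 11557, 8822 and 11321 reads in siNT and 9011 and 9978 in siZC3H4 (log2 -0.15 ± 0.18 SE). The uncharacterised gene 1810009A15Rik had 10522, 7936 and 9131 against 8059 and 8242 (log2 -0.16 ± 0.18 SE). Rab24, a small GTPase gene of the autophagy pathway, had 5503, 5475 and 4885 against 4919 and 4250 (log2 -0.21 ± 0.19 SE). In these 3 regions at least 1 siZC3H4 library lay inside the siNT range. Pcif1, which encodes the methyltransferase of cap-adjacent adenosines, had 5455, 4516 and 4505 against 5324 and 4970 (log2 0.10 ± 0.19 SE), with both siZC3H4 values inside the siNT range.

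Of the 10 regions, Schip1 rose, Parp2 and Gtf3c6 fell, and the remaining 7 missed the threshold. Of all 5124 tested uaRNA regions 62.1% rose, 1.13% fell and 36.8% did not pass. The median log2 change of the 10 was -0.16, and that of all tested regions was 0.88. The siNT coefficient of variation of the 10 ran from 5.18% to 24.9%, while counting error alone gave 0.385% to 1.43%. Counting error was thus small beside the spread between siNT libraries.

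**Figure D2:**
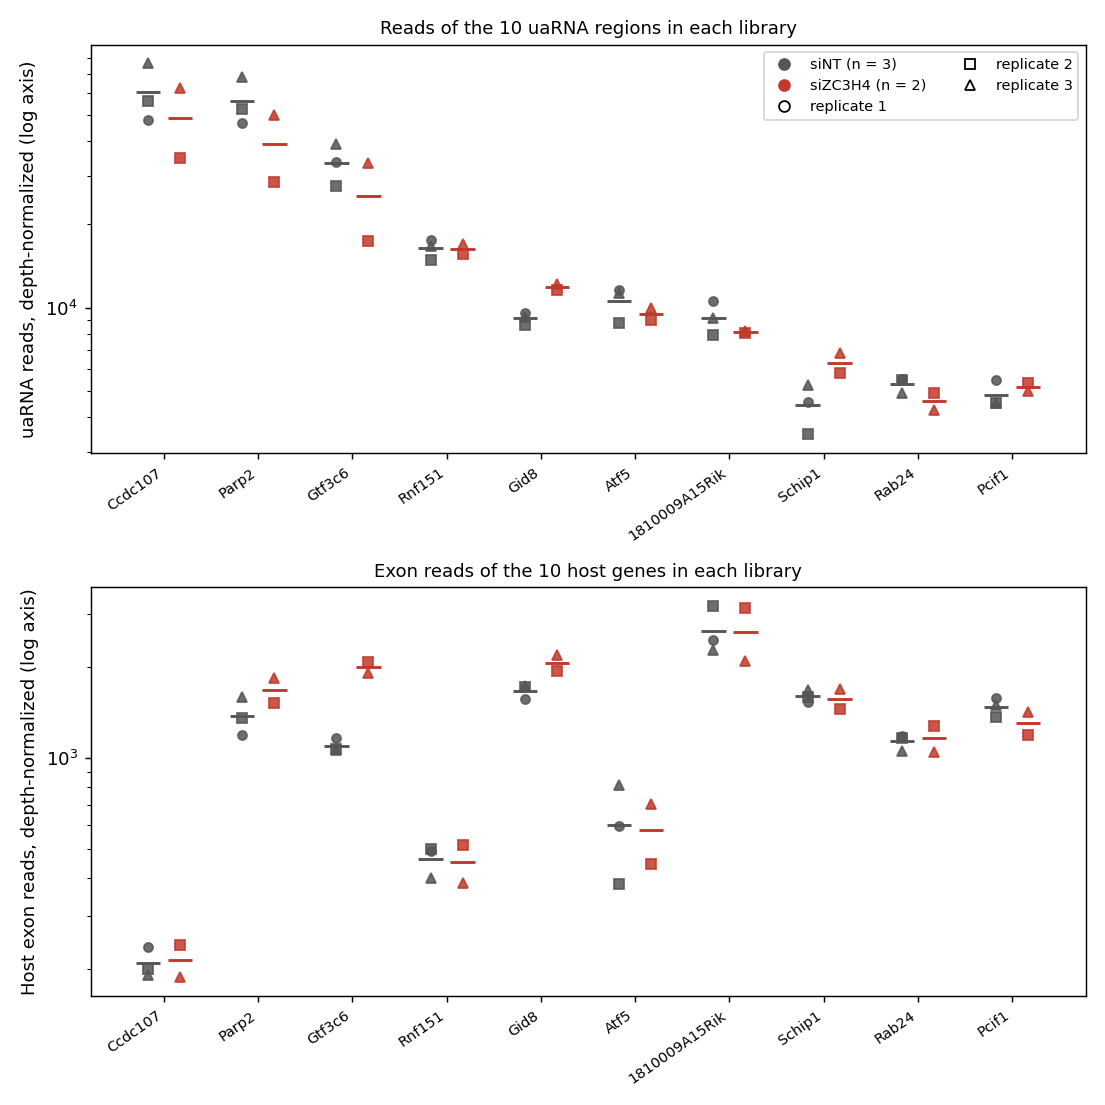
Depth-normalized reads (log axis) of the 10 uaRNA regions (top) and over the exons of their 10 host genes (bottom), one point per library, with grey for siNT (n = 3), red for siZC3H4 (n = 2), a symbol for each replicate number and a bar at the group mean. The siZC3H4 replicate 2 point is the lowest for Ccdc107, Parp2 and Gtf3c6, and Gtf3c6 has both siZC3H4 exon values above all siNT values.

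The 10 regions took a smaller share of all uaRNA reads in siZC3H4. The share was 19.3%, 21.2% and 24.1% in siNT replicates 1, 2 and 3, and 9.41% and 15.1% in siZC3H4 replicates 2 and 3. The groups did not overlap, but the difference of shares, -9.25 percentage points, was -6.40 without siZC3H4 replicate 2 and -12.1 without siZC3H4 replicate 3. The normalized sum over all other regions was 707309 to 804413 in siNT and 1175862 to 1357960 in siZC3H4, whereas the 7 regions below the top 3 summed to 53771 to 64692 and 60310 to 63429. Exact 95% Clopper-Pearson intervals, such as 9.37% to 9.44% for the lowest share, cover counting error only.

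Exon reads of the hosts were compared to ask whether a region moved with its own gene. Gtf3c6 rose, from 1162, 1070 and 1060 in siNT to 2083 and 1911 in siZC3H4. Both siZC3H4 libraries lay well above all siNT libraries, 1.82-fold in the fit (log2 0.86 ± 0.12 SE, limma adjusted p = 0.0101). Thus the exons of Gtf3c6 rose where its uaRNA region fell. The exon call was lost without siNT replicate 1 (limma adjusted p = 0.0752), siZC3H4 replicate 2 (0.157) or siZC3H4 replicate 3 (0.0516), with a log2 change of 0.80 to 0.93 over the 5 libraries left out in turn.

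The exons of the other 9 hosts did not pass the test, and 0 of 10 fell; across the 12482 tested genes, 97.6% did not pass, 2.22% rose and 0.144% fell. The median log2 change was 0.00 for the 10 hosts and 0.01 for all genes. Gid8 had 1567, 1712 and 1725 exon reads in siNT and 1933 and 2196 in siZC3H4 (log2 0.31 ± 0.12 SE, limma adjusted p = 0.273), which together with Gtf3c6 makes 2 of 10 hosts whose groups did not overlap, both higher, against 32.3% of all genes either way and 19.5% higher. Ccdc107 had 237, 200 and 191 exon reads against 241 and 188, so its uaRNA region had between 144 and 400 times the reads of its exons. Exon and uaRNA reads were counted over different lengths, so this ratio is of reads and not of levels per length.

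The ratio of uaRNA to exon reads was tested for each host. In Gtf3c6 it was 28.9, 25.7 and 36.8 in siNT and 8.33 and 17.5 in siZC3H4, and it fell (log2 -1.32 ± 0.36 SE, limma adjusted p = 0.00776). In Parp2 it was 39.1, 38.8 and 43.3 against 18.8 and 27.2, and it fell (log2 -0.84 ± 0.32 SE, limma adjusted p = 0.0385). In both genes the siZC3H4 values were all below the siNT values. None of the 10 ratios rose and 8 did not pass; of 5106 tested hosts 53.9% rose, 1.23% fell and 44.9% did not pass, with a median log2 change of 0.87. Without siZC3H4 replicate 2 neither call held (adjusted p = 0.183 for Gtf3c6 and 0.318 for Parp2), and Parp2 also lost its call without any 1 of the siNT libraries (0.0578 to 0.082).

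In 5 of the 10 hosts the ratio did not overlap between groups, against 73.1% of all hosts, 70.0% being higher and 3.06% lower. Besides Gtf3c6 and Parp2 these were Rab24, lower, and Schip1 and Pcif1, higher. The Schip1 ratio was 2.97, 2.19 and 3.13 in siNT and 4.00 and 4.04 in siZC3H4 (log2 0.56 ± 0.28 SE, limma adjusted p = 0.103). The Rab24 ratio was 4.64, 4.68 and 4.63 against 3.85 and 4.06 (log2 -0.24 ± 0.27 SE, limma adjusted p = 0.462).

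**Figure D3:**
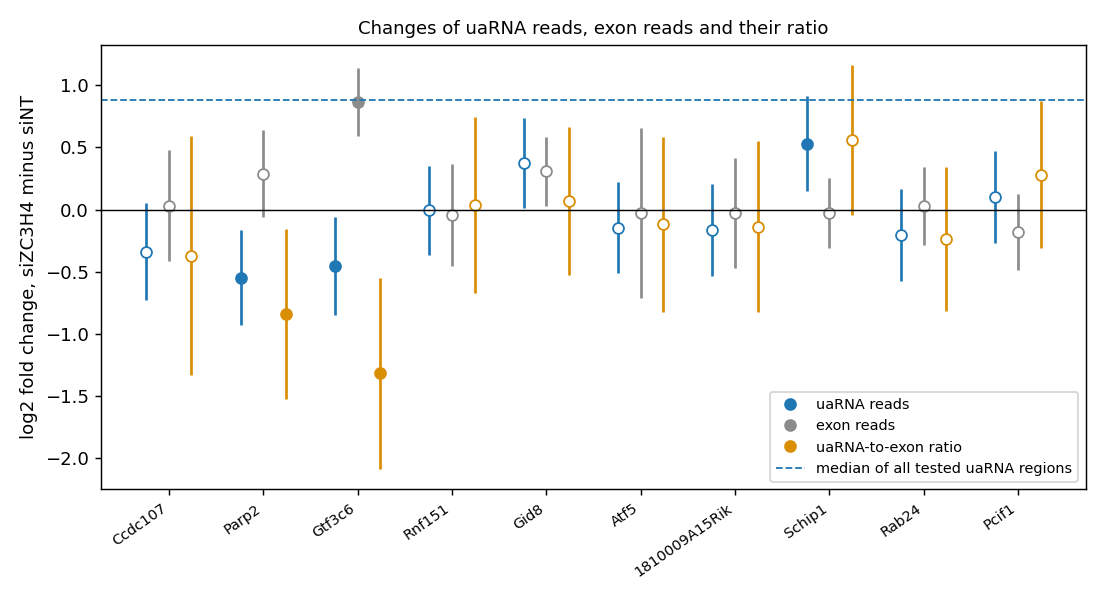
Log2 fold change (y axis, siZC3H4 minus siNT, 3 against 2 libraries) of uaRNA reads (blue), exon reads (grey) and their ratio (orange) of the 10 hosts, with 95% intervals from limma; filled points passed the test and the dashed line is the median of all tested uaRNA regions, 0.88. Filled are the uaRNA reads of Parp2, Gtf3c6 and Schip1, the exon reads of Gtf3c6, and the ratios of Parp2 and Gtf3c6.

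Beside 4 regions the opposite-strand gene had its own exon count, so the region could be set against it. These exons were counted over the deposited gene models, whose bounds differ from those of RefSeq. The deposited Rps2 (24720110 to 24721926) begins outside the 1 kb upstream of Rnf151, and the deposited Prelid1 (55320255 to 55325272) begins inside Rab24. Reads of the Rnf151 region per exon read of Rps2 were 1.01, 0.966 and 1.01 in siNT and 0.930 and 1.01 in siZC3H4. The Rab24 region had 1.30, 1.35 and 1.27 reads per exon read of Prelid1 in siNT and 1.43 and 1.36 in siZC3H4. Over the 5 libraries these ratios had coefficients of variation of 3.89% and 4.52%, against 6.42% and 10.3% for the reads of the regions themselves.

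The Gid8 region had 1.34, 0.974 and 1.16 reads per exon read of Dido1 in siNT and 1.58 and 1.46 in siZC3H4. For Atf5 against Nup62 the values were 1.84, 1.62 and 1.26 against 1.44 and 1.20. These ratios varied by 18.4% and 17.8%, more than the reads of the regions themselves (15.1% and 12.5%). The groups did not overlap for Gid8 and Rab24, both higher in siZC3H4, and overlapped for Rnf151 and Atf5. None of Rps2, Dido1, Nup62 and Prelid1 passed the test on exon reads; Prelid1, the lowest of them, had 4218, 4070 and 3843 reads against 3438 and 3116 (log2 -0.30 ± 0.11 SE, limma adjusted p = 0.238). Whether reads of the neighbour are counted in the region was not tested, since the tables used here give neither the bounds of a region nor its reads by strand.

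**Figure D4:**
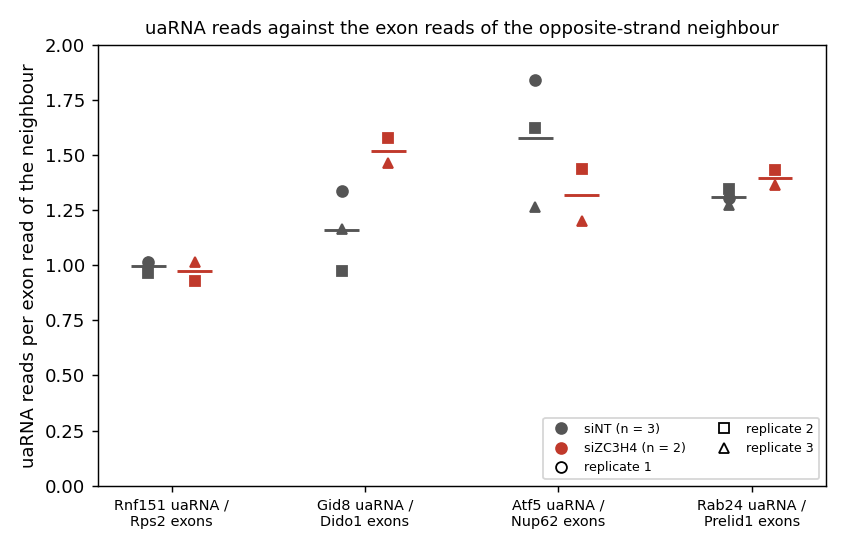
Reads of the uaRNA region per exon read of the opposite-strand neighbour (y axis, from 0) in each library, for the 4 hosts whose neighbour was counted over exons; symbols, colours and bars as in the plot of reads by library. Rnf151 over Rps2 stays between 0.930 and 1.01 in all 5 libraries. Exons are those of the deposited gene models, and the deposited Rps2 begins outside the 1 kb upstream of Rnf151.

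The tie between an upstream gene and the size of the change was then described over the whole table. Of the 88 regions ranked 13 to 100, the 31 with an opposite-strand or unstranded gene within 1 kb upstream had a median log2 change of 0.05, and the other 57 had 0.86. At ranks 101 to 1000 the medians were 0.65 (243 regions) and 0.89 (657), and at lower ranks with a mean of 10 reads or more 0.87 (628) and 0.91 (3496). At ranks 1 to 12 no gap was seen: the 9 regions with such a gene, all among the 10, had a median of -0.16, and the 3 without, Schip1 and the histone genes H4c1 and H1f1, had -0.18. Schip1 was the one of the 10 without, at 0.53. These medians are a description, given with no test.

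**Figure D5:**
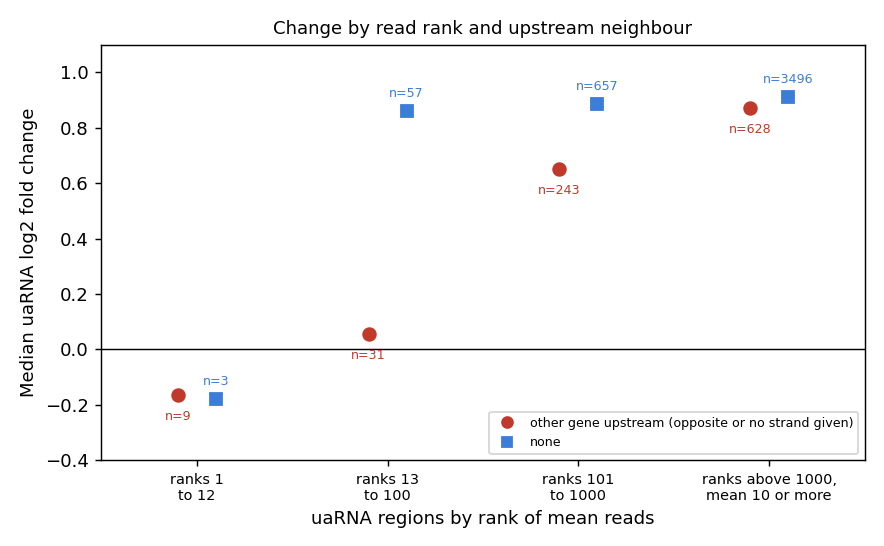
Median log2 fold change of uaRNA reads (y axis) by rank of mean reads (x axis), for regions with (red circles) and without (blue squares) another RefSeq gene of the opposite or no given strand in the 1 kb upstream; n is the number of regions. The medians with such a gene go from -0.16 at ranks 1 to 12 through 0.05 and 0.65 to 0.87, while those without are -0.18 at ranks 1 to 12 (3 regions) and 0.86 to 0.91 at lower ranks.

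Genes that work with the hosts or with the upstream RNAs were read over exons, from lists. None of 9 tested proteins of RNase P and RNase MRP (led by Rpp25), of 15 U3 snoRNP proteins (led by Nop56), or of 10 SNAPc and RNA polymerase III start factors (led by Pou2f1) passed the test, with median log2 changes of -0.06, 0.02 and -0.07. In a list of the 6 TFIIIC subunits and Gtf3a, the gene of TFIIIA, which is no TFIIIC subunit, Gtf3c6 was the 1 of 7 that rose, and 0 fell (median 0.15 over the 7). None of 11 CTLH subunits (median 0.01) or 13 PARP family genes (median 0.23, 11 of 13 above 0) passed. Of 17 listed structured short RNAs, the exon table held 2, Rnu11 and Rnu12, the RNAs of the minor spliceosome, and Rmrp, Rpph1 and Rnu3a were not among them.

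Rnu11 had 2003, 1418 and 1925 reads in siNT and 1286 and 1319 in siZC3H4, with no overlap (log2 -0.44 ± 0.16 SE, limma adjusted p = 0.237). Rnu12 had 1833, 1000 and 1505 against 880 and 1294 (log2 -0.39 ± 0.25 SE, limma adjusted p = 0.538). Neither passed the test, and their siZC3H4 minus siNT differences on the log2 scale are given beside those of the Ccdc107 (-0.34), Parp2 (-0.55) and Gtf3c6 (-0.45) regions without a test of likeness.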

How the data were processed

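Per the labels, captured 4sU RNA went into a stranded library kit. The submitters' processing notes name cutadapt 1.14, STAR, featureCounts and DESeq2 and the builds mm10 and dm6, with no roles. The authors deposited depth-normalized signal for 5867 uaRNA regions and 13088 genes counted over exons. Multiplying the values by 1 factor per library (1 to 1.767) gave whole reads for 100% of values within 0.01. The origin of these factors, and of the region bounds, was not stated in the sources used.

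Tests used log2(value + 1) with limma 3.58.1 in R 4.3.3 (lmFit, eBayes with trend), siZC3H4 minus siNT, on features with a mean of 10 or more, with Benjamini-Hochberg adjustment over each table (threshold 0.05); folds of low features are understated. "Rose" and "fell" mean past that threshold. The scripts were tested on simulated data. Alternatives were edgeR 4.0.16 and DESeq2 1.42.0 on recovered reads, other pseudocounts, filters and scalings, a replicate block, and each library left out. Named genes were the 10 hosts, their upstream neighbours, the nearest profiles to the top 3 regions, and the leading gene of each list. The members and lists were chosen with earlier results of these data known. Replicate numbers 2 and 3 occur in both groups; 2 shared numbers are too few to establish pairing.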

Additional observations from a re-analysis of the deposited data

How the results depend on the processing

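Most calls of the 10 regions changed with the scaling. The median log2 change of all tested regions was 0.88 with the deposited factors, 0.01 with median of ratios and 0.03 with TMM. It was 0.32 at equal uaRNA totals and 0.16 at equal totals without the 10 regions. All 4 scalings lower every region together, and median of ratios and TMM place the typical region near 0 by design. A fall under them therefore cannot be told from a rise smaller than that of most regions. Under these 4 scalings 9, 8, 8 and 8 of the 10 fell and 0 rose (over all regions, 539 rose and 593 fell, 560 and 563, 1257 and 319, 824 and 425). In the same order Gid8 was at -0.52, -0.49, -0.19 and -0.36, Schip1 at -0.36, -0.34, -0.040 and -0.20, and Pcif1 at -0.79, -0.77, -0.47 and -0.63. For exons, median of ratios put Ccdc107 at -0.0088 and Rab24 at -0.012. With no filter on low values 0 regions rose, 0 fell and 1 ratio fell; the number of regions that fell was 1 at a mean of 50 or more, 1 with edgeR on recovered reads and 0 with DESeq2.

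Leaving out 1 library at a time, the regions that rose ranged from 0 to 1, those that fell from 0 to 3, host exons that rose from 0 to 1, and ratios that fell from 0 to 2. The uaRNA log2 change ranged from -0.76 to 0.086 for Ccdc107, -0.93 to 0.019 for Gtf3c6 and -0.072 to 0.051 for Rnf151. The exon change ranged from -0.36 to 0.30 for Atf5, -0.25 to 0.16 for Rnf151, -0.32 to 0.26 for 1810009A15Rik, -0.15 to 0.21 for Ccdc107, -0.14 to 0.086 for Schip1 and -0.12 to 0.17 for Rab24. The ratio change ranged from -0.44 to 0.17 for 1810009A15Rik, -0.22 to 0.30 for Rnf151, -0.97 to 0.23 for Ccdc107 and -0.38 to 0.14 for Atf5. The share difference ranged from -12.1 to -6.40 percentage points, and the reads of the 10 as a percentage of the sum over regions with no other gene within 1 kb upstream, a sum that does not include them, differed by -21.2 points.

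With the replicate number as a block, 2 regions rose (Schip1 and Gid8), 3 fell (Parp2, Gtf3c6 and Ccdc107, the last at -0.49 with adjusted p = 0.000293), 1 ratio rose (Schip1), and Rnf151 stood at 0.044, the exons of Atf5 at 0.0034 and the ratio of 1810009A15Rik at 0.0059. Deviations from the group means correlated between same-numbered libraries (r = 0.376 and 0.426 for uaRNA regions, 0.528 and 0.618 for exons). With 2 siZC3H4 libraries, their deviations mirror each other, so the 2 values of each kind are not independent. Libraries of unlike number were not compared, so these values do not establish pairing. The block raised the count of all exon calls that rose from 277 to 1530, against 2 without siNT replicate 1. The cause of these differences was not tested. The count of 9 hosts with an upstream gene was the same within 1 kb and 5 kb, but the share went from 35.2% to 55.7% of regions at ranks 13 to 100 and from 16.9% to 26.5% of all regions, so the contrast is smaller at 5 kb. Counting error in these regions was below the spread between libraries.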
